A study of Mus musculus with 40 samples.

Results

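The mitochondrially encoded mRNAs *COX1*, *COX2*, *COX3*, *CYTB*, *ATP6* and *ATP8* were followed across 40 mRNA-seq libraries from mouse midbrain and spinal cord. They were chosen as the genes of the mitochondrial genome that encode subunits of respiratory complexes III, IV and V, a rule that uses no measured value. They are 6 of the 40213 gene symbols counted, and all 6 passed the filter on low counts in both tissues. The mice were male C57BL/6N, 8 weeks old, in 5 groups with 4 replicates per group and tissue. Con received saline. The other groups received the dopaminergic neurotoxin MPTP, 20 mg/kg, as 4 injections 2 h apart. Only the comparisons of MPTP-Veh against Con therefore set mice with MPTP against mice without it. Per the study's legends, Con and MPTP-Veh both received saline at the acupoint GB34. MPTP-SU received the herbal injection SUEHP (SU-Eohyeol pharmacopuncture) at GB34 as 4 injections. MPTP-SU+S also received a CB1 antagonist, SR141716A in the methods and SR141714A in the sample labels, at 3 mg/kg. For MPTP-SU+S the study's legends give the SUEHP injection at GB35 in their group lists and at GB34 in their descriptions. MPTP-SU+T also received the PPARγ inhibitor T0070907 at 5 mg/kg. The methods give both agents as pretreatments and the labels as co-treatments. Both were injected intraperitoneally in a mixture of ethanol, Alkamuls and saline. The methods describe no injection of this solvent in MPTP-SU, so agent and solvent cannot be told apart. MPTP was given systemically, in wild-type mice. The labels do not state that the 4 replicates of a group came from different mice, so p-values measure the spread between these libraries.

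Mitochondria keep a small circular genome whose protein genes all serve oxidative phosphorylation. Complex III passes electrons from ubiquinol to cytochrome c, complex IV (cytochrome c oxidase) passes them to oxygen, and complex V (ATP synthase) uses the resulting proton gradient to make ATP. Each of these complexes combines the mitochondrial subunits with a larger number of subunits made from nuclear genes. The 6 genes studied here lie on the same strand and are cut out of long shared precursor RNAs, so their mRNA levels depend on common transcription and on the processing and decay of each mRNA. MPTP is converted to a toxin that acts on complex I, and mitochondrial dysfunction is a recognised feature of this model of Parkinson's disease.

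*CYTB* encodes cytochrome b, the catalytic core of complex III that carries its haems. *COX1* holds the oxygen-reducing centre of complex IV, *COX2* receives electrons from cytochrome c, and *COX3* completes the catalytic core. *ATP6* forms part of the proton channel of complex V, and *ATP8* is a small subunit of the same membrane sector. In GENCODE mouse transcripts (GRCm38, used here for sequences only) the reading frames of these genes were 1144 nt for *CYTB*, 1545 nt for *COX1*, 684 nt for *COX2*, 784 nt for *COX3*, 681 nt for *ATP6* and 204 nt for *ATP8*. The *ATP8* and *ATP6* reading frames share 43 nt, which is 21.1% of *ATP8* and 6.31% of *ATP6*. Both are translated from 1 mRNA, so a difference between their counts is not one between separate mRNAs. It can reflect regions of the shared transcript or the assignment of reads, and the part of each was not tested. The junction is shown first because *ATP8* is the member with the clearest difference between groups, and reads inside the shared stretch, in capitals, cannot be assigned to either gene by sequence.

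ATP8-ATP6 junction: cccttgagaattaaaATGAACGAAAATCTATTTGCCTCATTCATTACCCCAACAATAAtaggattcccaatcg

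The libraries were made from polyadenylated RNA, and 2 of the 6 genes complete their stop codon only when a poly(A) tail is added. The last 30 bases of each gene show this, with the stop codon, or the 1 base of it that the genome encodes, in capitals.

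CYTB: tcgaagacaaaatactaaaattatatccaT
COX1: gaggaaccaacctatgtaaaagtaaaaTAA
COX2: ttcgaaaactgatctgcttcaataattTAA
COX3: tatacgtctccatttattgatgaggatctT
ATP6: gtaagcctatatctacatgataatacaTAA
ATP8: tatttgcctcattcattaccccaacaaTAA

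Annotated nuclear copies of mitochondrial DNA share long stretches with some of these genes. Counted as 31-base stretches, Gm10925 holds 99.5% of *ATP6*, Gm28437 99.9% of *COX3*, Gm28661 99.5% of *COX2* and Gm13340 45.2% of *COX1*. No such copy held more than 7.47% of *ATP8* or 6.55% of *CYTB*. Reads from such a copy could not be told apart from the mitochondrial gene by sequence, so *COX2*, *COX3* and *ATP6* are the least certain in this respect. None of the 13 annotated copies was among the gene symbols counted, so the copies themselves could not be analysed here.

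The library totals were 11958200 to 16639823 estimated counts in the midbrain and 14642808 to 16615378 in the spinal cord. The 6 genes took 7.25% to 11.3% of all counts in the 20 spinal cord libraries and 6.88% to 11.8% in 19 midbrain libraries. Midbrain MPTP-Veh replicate 4 stood apart at 0.928% (95% Wilson interval 0.922% to 0.933%, which covers counting error only). In that library the summed level of 5 oligodendrocyte markers was 34827 CPM, against 9366 to 13396 CPM in the other midbrain groups, and the 5 red blood cell markers summed to 2529 CPM, against at most 402 CPM in those groups. The 5 nuclear RNAs summed to 12165 CPM against at most 5775 CPM, though every midbrain MPTP-Veh library had 6047 CPM or more. The 5 microglia markers summed to 326 CPM against at most 171 CPM, and the 6 neuron markers to 3104 CPM against at least 3924 CPM. The part of these in the result was not tested. The tissue labels held: 6 midbrain markers such as *Th* had a sum of 92.5 to 299 CPM in midbrain libraries against 6.62 to 9.35 CPM in spinal cord libraries. The sum of 6 *Hox* genes of the spinal cord was 345 to 385 CPM in that tissue, and no midbrain library exceeded 1.32 CPM. These are bulk tissues, in which fewer cells of a type and less RNA per cell cannot be told apart.

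The levels of the 6 genes were compared first per length, as CPM per kilobase with the TMM library size. In the spinal cord (20 libraries) the order of mean level was *ATP6* at 25243 ± 3747 (SD), *COX1* at 22616 ± 3006, *COX2* at 18669 ± 2506, *ATP8* at 14623 ± 2884, *CYTB* at 14450 ± 1905 and *COX3* at 13657 ± 1962. In the midbrain it was *ATP6* at 23821 ± 6678, *COX1* at 22609 ± 5969, *COX2* at 18446 ± 4697, *COX3* at 16201 ± 3608, *ATP8* at 13838 ± 4865 and *CYTB* at 12446 ± 3427. Without MPTP-Veh replicate 4 the midbrain means were 25009 ± 4158 for *ATP6*, 23713 ± 3449 for *COX1*, 19303 ± 2789 for *COX2*, 16758 ± 2681 for *COX3*, 14520 ± 3895 for *ATP8* and 13055 ± 2135 for *CYTB* (SD, 19 libraries), in the same order. Both tissues placed the same 3 genes at the top. Within libraries, the level per length of *ATP6* lay above that of *COX1* in 19 of 20 spinal cord and 14 of 20 midbrain libraries, and *COX1* above *COX2* in 19 and 18. *COX2* lay above *COX3* in 20 and 19. The lower 3 genes were not separated in the spinal cord, where *COX3* exceeded *CYTB* in 5 of 20 libraries and *CYTB* exceeded *ATP8* in 7. In the midbrain *COX3* exceeded *CYTB* in 18 of 20 libraries and *CYTB* exceeded *ATP8* in 9. The midbrain order of *CYTB* and *ATP8* differed by group. The mean of *CYTB* was higher in Con (14998 against 14011) and MPTP-Veh. It was lower in MPTP-SU (11659 against 14688), MPTP-SU+S and MPTP-SU+T. The gene lengths were those given above, with no correction for fragment length. *ATP8* and *ATP6* share an mRNA yet differed in level per length. The order is therefore one of counts per length and not of mRNA amounts.

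Across all 5 conditions, *COX3* had the largest fitted difference between the tissues in the main edgeR fit. Its fitted level was 0.25 higher in the midbrain on the log2 scale (SE 0.090, adjusted p = 0.0147, edgeR quasi-likelihood test), or 0.30 (SE 0.063, adjusted p = 7.69e-05) without MPTP-Veh replicate 4, which is less than the 1.5-fold threshold. The sources used here do not say whether both tissues came from the same mice, and with condition and replicate number as a block the difference was 0.23 (adjusted p = 0.0292). In the Con groups alone it was 0.32 with an adjusted p = 0.241. *CYTB* was 0.21 lower in the midbrain (adjusted p = 0.228), and 0.14 lower without that library (SE 0.056, adjusted p = 0.0315). In the Con groups alone its sign turned, at 0.22 higher in the midbrain (adjusted p = 0.684). *CYTB* was 0.30 lower with the block and 0.34 lower with limma-voom, larger in size than *COX3* at 0.23 in both. Neither *CYTB* value had an adjusted p below 0.05. For *COX1*, *COX2*, *ATP6* and *ATP8* the difference was at most 0.08 in size with or without MPTP-Veh replicate 4. With the block it was -0.09 for *COX1*, -0.08 for *COX2*, -0.17 for *ATP6* and -0.18 for *ATP8*, with no adjusted p below 0.05. In the Con groups alone it was 0.29 for *COX1*, 0.19 for *COX2*, 0.20 for *ATP6* and 0.02 for *ATP8*, with adjusted p-values of 0.549 to 0.973. An adjusted p below 0.05 was common between the tissues, at 66.2% of the 17426 genes tested (71.2% without the library), and 22% also passed 1.5-fold (9.8% higher and 12.2% lower in the midbrain). None of the 6 did.

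**Figure D1:**
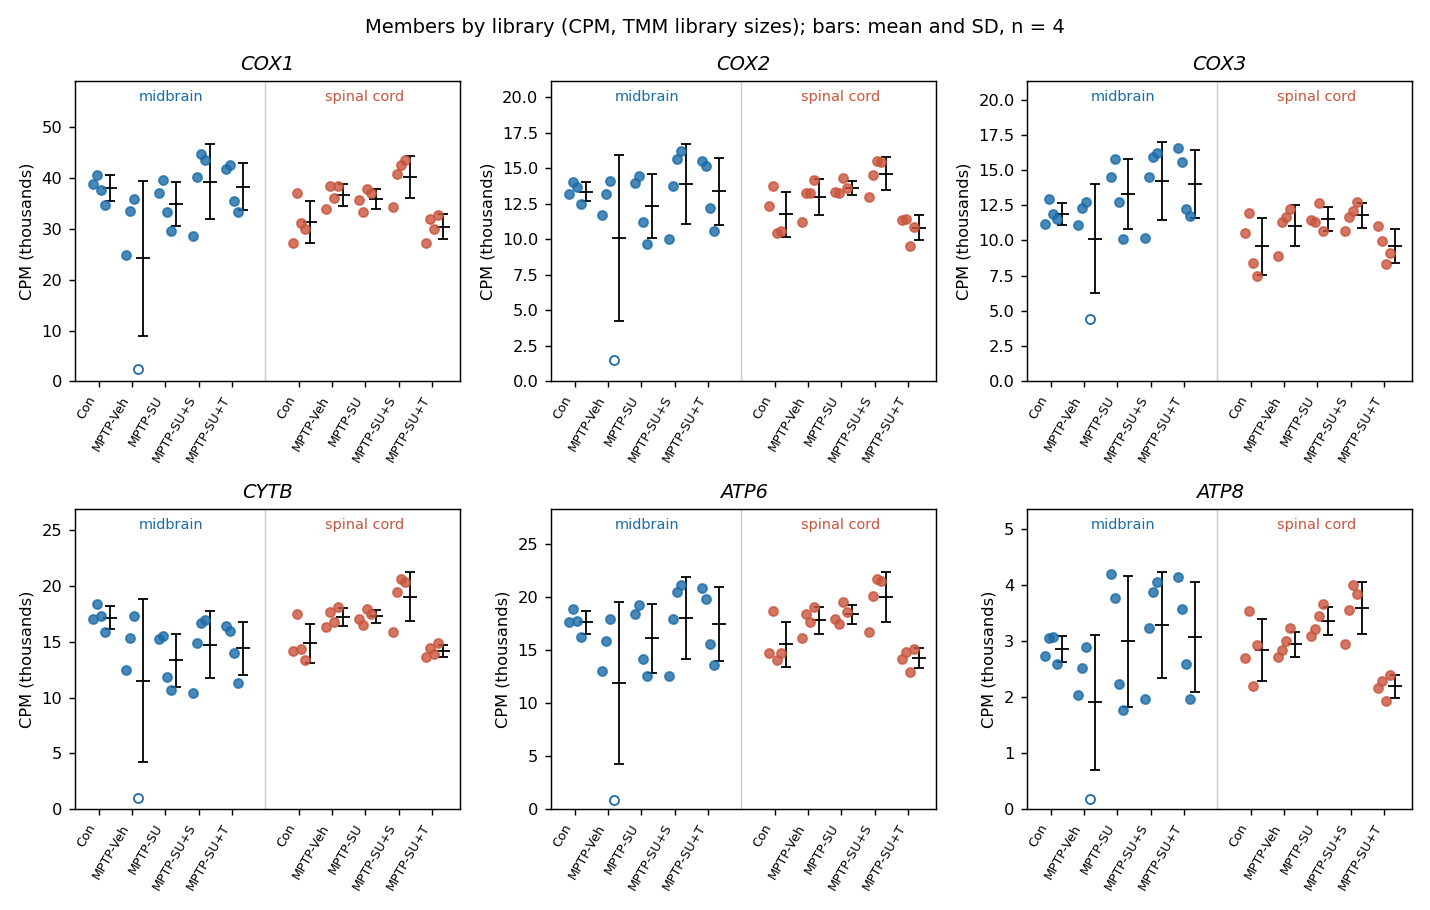
Expression of the 6 genes in each library, in kilo-CPM with TMM library sizes, for the 5 groups of the midbrain (blue) and the spinal cord (red). Points are libraries, black marks are the mean and SD of 4, and the open point is midbrain MPTP-Veh replicate 4, which lies lowest in every panel; in the spinal cord MPTP-SU+T lies below MPTP-SU for 5 of the 6 genes.

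The clearest difference between groups was in the spinal cord, where the PPARγ inhibitor was added to SUEHP. *ATP8* fell by 0.61 on the log2 scale in MPTP-SU+T compared to MPTP-SU (SE 0.11, adjusted p = 0.0291, a ratio of 0.654, n = 4 per group, edgeR quasi-likelihood test). Its 4 MPTP-SU values were 3097, 3210, 3453 and 3662 CPM, and its 4 MPTP-SU+T values were 2169, 2289, 1921 and 2398 CPM. The groups did not overlap. *ATP8* was 1 of 4 genes among 16682 that passed the threshold of an adjusted p below 0.05 and a change above 1.5-fold (0.024%), and 1 of the 2 that were lower (0.012%). The number of genes called was 13 with the 8 libraries of the comparison alone and 27 with no low-count filter.

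The other complex V member, *ATP6*, read 17896, 17453, 19552 and 18556 CPM in MPTP-SU and 14143, 14810, 12968 and 15125 CPM in MPTP-SU+T. These groups also did not overlap, and the difference was -0.36 (SE 0.085, adjusted p = 0.143), which did not pass. In complex III, *CYTB* read 17080, 16559, 17988 and 17531 CPM in MPTP-SU and 13656, 14444, 13881 and 14870 CPM in MPTP-SU+T, a difference of -0.28 (SE 0.075, adjusted p = 0.174). *CYTB* likewise had no overlap between the groups.

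In complex IV, *COX1* read 35700, 33255, 37813 and 37000 CPM in MPTP-SU and 27141, 31902, 29881 and 32702 CPM in MPTP-SU+T. *COX2* read 13361, 13252, 14348 and 13607 CPM against 11387, 11432, 9563 and 10878 CPM. Both had every MPTP-SU+T library below every MPTP-SU library. *COX3* read 11422, 11298, 12657 and 10657 CPM against 11032, 9994, 8310 and 9088 CPM, and its groups overlapped through MPTP-SU+T replicate 1. The fitted differences were -0.24 for *COX1* (adjusted p = 0.249), -0.33 for *COX2* (adjusted p = 0.162) and -0.26 for *COX3* (adjusted p = 0.371).

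Thus 1 of the 6 genes passed the threshold in this comparison and 5 of the 6 had groups that did not overlap, where 8.04% of all genes tested did not overlap and 12.1% had an unadjusted p below 0.05. The median difference of the 6 was -0.31, against 0.007 over all genes tested. The MPTP-SU+T values overlapped those of Con for all 6: in Con, *ATP8* ranged from 2204 to 3529 CPM, *COX1* from 27207 to 37032 CPM and *ATP6* from 14022 to 18636 CPM. Lack of overlap between MPTP-SU and MPTP-SU+T was not particular to these genes. The complex I mRNAs *ND1*, *ND2*, *ND3*, *ND4L*, *ND4* and *ND5* had none either, and *ND6* overlapped. *ND1* reached at most 11614 CPM in MPTP-SU+T against at least 13153 CPM in MPTP-SU, and *ND5* at most 10131 CPM against at least 11229 CPM. The call of *ATP8* depended on single libraries. It was lost when MPTP-SU replicate 1, 2, 3 or 4 or MPTP-SU+T replicate 1, 2 or 3 was left out, with an adjusted p of up to 0.180 and a log2 fold change of -0.65 to -0.56, and was kept without MPTP-SU+T replicate 4 (-0.66). MPTP-SU+T replicate 1 also carried more mitochondrial ribosomal RNA, 2.34% of its counts against 0.927%, 0.893% and 1.045% in replicates 2 to 4 and at most 1.18% in MPTP-SU. The summed cell type markers overlapped between the groups, with 6 neuron markers at 4346 to 4797 CPM in MPTP-SU and 4206 to 4428 CPM in MPTP-SU+T. The part of this in the result was not tested.

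**Figure D2:**
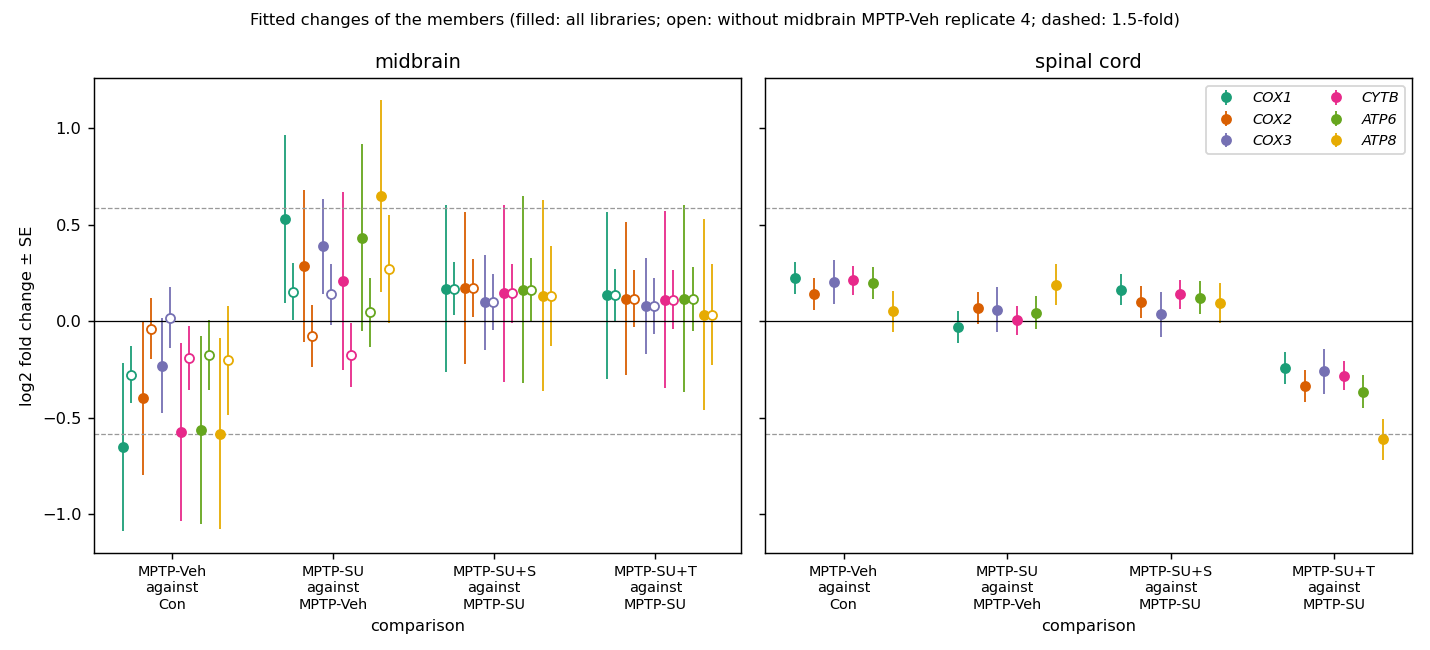
Fitted log2 fold change with its SE for each of the 6 genes in the 4 comparisons within each tissue, from all libraries (filled) and without midbrain MPTP-Veh replicate 4 (open), with dashed lines at 1.5-fold. In the spinal cord all 6 lie below 0 for MPTP-SU+T against MPTP-SU and *ATP8*, at -0.61, is the 1 beyond 1.5-fold; in the midbrain the first 2 comparisons move toward 0 without that library.

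Compared to Con, MPTP-Veh showed no member past the threshold in the spinal cord, and no gene of the 16682 passed it (0%), although 2137 genes, or 12.8%, had an unadjusted p below 0.05. All 6 fitted differences were above 0, from 0.05 for *ATP8* to 0.23 for *COX1*, with a median of 0.20. Under the alternatives run the median was 0.13 to 0.30, and *ATP8* ran from -0.05 to 0.18. The lowest adjusted p under an alternative was below 0.05 for *COX1*, *CYTB* and *ATP6*, but no member was called. Other sums had no overlap between these groups: the 5 nuclear RNAs were at 6705 to 7853 CPM in Con and 6012 to 6351 CPM in MPTP-Veh, and the 5 oligodendrocyte markers at 17658 to 19788 CPM and 19942 to 20636 CPM. Con replicates 1 and 2 also held 2.31% and 2.63% mitochondrial ribosomal RNA, against at most 1.31% in MPTP-Veh. The part of these in the result was not tested. *CYTB* had the smallest adjusted p (0.21, SE 0.075, adjusted p = 0.263, edgeR). Its Con values were 14207, 17459, 14397 and 13412 CPM and its MPTP-Veh values were 16354, 17671, 16772 and 18089 CPM. Con replicate 2 was the one Con library inside the MPTP-Veh range. *COX1* behaved alike, with Con at 27207, 37032, 31229 and 30077 CPM and MPTP-Veh at 33993, 38402, 36010 and 38395 CPM (0.23, SE 0.083, adjusted p = 0.274).

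SUEHP alone left the 6 genes close to MPTP-Veh in the spinal cord. The fitted differences ran from -0.03 for *COX1* to 0.19 for *ATP8* (SE 0.075 to 0.115), with a median of 0.05 and every adjusted p at 0.999. No gene was called (0%), and 3.81% of genes had an unadjusted p below 0.05. Addition of the CB1 antagonist gave differences from MPTP-SU of 0.04 for *COX3* to 0.16 for *COX1*, with a median of 0.11 and adjusted p-values of 0.899 to 0.981. No gene was called there either (0%), with 5.49% at an unadjusted p below 0.05. *ATP8* read 2945, 3555, 3992 and 3836 CPM in MPTP-SU+S, overlapping MPTP-SU.

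In the midbrain, no member passed the threshold in any comparison, and with all libraries every member's groups overlapped, where the groups of 12.4% (MPTP-Veh against Con), 21.9% (MPTP-SU against MPTP-Veh), 2.15% (MPTP-SU+S against MPTP-SU) and 1.96% (MPTP-SU+T against MPTP-SU) of all genes tested did not. The results with MPTP-Veh depended on replicate 4. In that library *COX1* read 2532 CPM, against 24811, 33431 and 35937 CPM in the other 3. *CYTB* read 996 CPM against 12463, 15344 and 17345 CPM. *ATP6* read 855 CPM against 13015, 15824 and 17970 CPM, and *ATP8* 180 CPM against 2041, 2524 and 2889 CPM. *COX2* read 1478 CPM against 11699, 13227 and 14077 CPM. *COX3* was the exception to this size of gap, at 4400 CPM against 11107, 12312 and 12719 CPM. Replicate 4 thus lay 18.5-fold below the median of the other 3 for *ATP6*, 15.4-fold for *CYTB*, 14.0-fold for *ATP8*, 13.2-fold for *COX1*, 8.95-fold for *COX2* and 2.80-fold for *COX3*. *COX3* made up 28.9% of the counts of the 13 mitochondrial mRNAs in that library, where it made up 7.29% to 10.3% in the other 19. Its mitochondrial ribosomal RNA was 0.384% of counts, against 1.58% to 4.26% in the others.

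With all libraries, MPTP-Veh minus Con was -0.65 for *COX1* (SE 0.43), -0.40 for *COX2*, -0.23 for *COX3*, -0.57 for *CYTB*, -0.56 for *ATP6* and -0.58 for *ATP8*, with adjusted p-values of 0.346 to 0.560 and 0.018% of genes called. Without replicate 4 they were -0.28 for *COX1* (SE 0.15, adjusted p = 0.473), -0.04 for *COX2*, 0.02 for *COX3*, -0.19 for *CYTB*, -0.17 for *ATP6* and -0.20 for *ATP8*, with 0.00594% of genes called. The median moved from -0.57 to -0.18, and was -1.17 with all libraries under limma-voom. *COX1* in Con was 38918, 40691, 37746 and 34742 CPM, so MPTP-Veh replicates 1 and 2 lay below every Con library and replicate 3 inside their range.

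Between MPTP-SU and MPTP-Veh the differences were 0.53 for *COX1*, 0.29 for *COX2*, 0.39 for *COX3*, 0.21 for *CYTB*, 0.43 for *ATP6* and 0.65 for *ATP8* (SE 0.25 to 0.50, adjusted p = 0.243 to 0.755). This is a comparison in which 13.5% of all genes tested were called. Without replicate 4, 3.4% were called and the differences were 0.15, -0.08, 0.14, -0.17, 0.05 and 0.27 in the same order of genes (adjusted p = 0.529 to 0.897), so *COX2* and *CYTB* changed sign. The median of the 6 moved from 0.41 to 0.09, and was 0.94 with all libraries under limma-voom. The 5 nuclear RNAs were at 4104 to 5775 CPM in MPTP-SU and 6047 to 12165 CPM in MPTP-Veh, and mitochondrial ribosomal RNA at 2.10% to 3.93% and 0.384% to 2.03% of counts, both without overlap. The part of these in the result was not tested.

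The midbrain libraries of the SUEHP groups were spread more widely than those of Con. *ATP8* read 4203, 3766, 2240 and 1776 CPM in MPTP-SU, 1969, 3231, 3881 and 4050 CPM in MPTP-SU+S, and 4149, 3572, 2584 and 1970 CPM in MPTP-SU+T, while Con spanned 2597 to 3065 CPM. In MPTP-SU, replicates 1 and 2 were above every Con library and replicates 3 and 4 below. *ATP6* read 18408, 19281, 14181 and 12523 CPM in MPTP-SU, with the same 2 libraries high and the same 2 low. The SD of *ATP8* was 1171 CPM in MPTP-SU, 944 CPM in MPTP-SU+S and 977 CPM in MPTP-SU+T, against 234 CPM in Con. Neither antagonist gave a difference beyond this spread: MPTP-SU+S differed from MPTP-SU by 0.10 to 0.17 and MPTP-SU+T by 0.03 to 0.13 over the 6 genes, with adjusted p-values of 1.00, no gene called (0%) and 1.65% and 1.7% of genes at an unadjusted p below 0.05. Without MPTP-Veh replicate 4 the differences were the same to 2 decimals, with SEs of 0.14 to 0.26 in place of 0.25 to 0.49, adjusted p-values of 1.00, no gene called (0%) and 4.02% and 4.19% of genes at an unadjusted p below 0.05.

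Whether a change differed between the tissues was tested as an interaction in a fit of all 40 libraries. No member passed for any of the 4 changes, including MPTP-SU against MPTP-Veh, where 12.1% of genes were called with all libraries and 3.9% without MPTP-Veh replicate 4. For the effect of MPTP (MPTP-Veh against Con), where 2.45% of genes were called, *COX1* differed by -0.89 (SE 0.46, adjusted p = 0.199), and by -0.50 (SE 0.17, adjusted p = 0.108) without midbrain replicate 4, where 0.55% were called. For MPTP-SU+T against MPTP-SU no gene was called (0%). The 6 differences between tissues ran from 0.35 for *COX3* to 0.65 for *ATP8*, with unadjusted p-values of 0.225 to 0.413. Without that library they ran from 0.33 for *COX3* to 0.64 for *ATP8*, with unadjusted p-values of 0.0157 to 0.0980, below 0.05 for 5 of the 6 where 4.48% of all genes were, and adjusted p-values of 1.00. The fall of *ATP8* was therefore called in the spinal cord alone, and the difference from the midbrain did not pass the adjusted threshold.

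The balance among the 13 mitochondrial mRNAs, which does not depend on the scaling of a library, was examined next. It was given as each gene's percentage of their summed counts and tested with two-sided exact permutation tests, whose smallest p is 0.0286 for 4 against 4 libraries. Over the 6 genes and 8 comparisons, 6 of 48 tests reached that p, and the smallest p adjusted over all 104 tests of the 13 genes was 0.229, so none passed the correction. Over all 13 genes, 13 of 104 tests reached it, so the 6 genes, at 12.5%, were at the same share as the 13, and the values below are descriptions.

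In complex III, the share of *CYTB* separated the midbrain libraries given SUEHP from the others. It was 9.74%, 9.54%, 9.60% and 9.99% in MPTP-SU, and 9.44% to 10.3% over all 12 libraries of the 3 SUEHP groups. In Con it was 11.15%, 11.15%, 11.10% and 11.11%, and in MPTP-Veh replicates 1 to 3 it was 11.18%, 10.98% and 11.35%. The 12 and the 7 libraries did not overlap. This held for 1 of the 6 genes and for 3 of the 13 mRNAs (23.1%), the other two being *ND2* (4.64% to 5.81% against 5.82% to 6.13%) and *ND6* (0.0181% to 0.0377% against 0.0408% to 0.110%), so it was not particular to *CYTB*, and the separation was noticed after the values were seen. MPTP-Veh replicate 4 was lower than both, at 6.53%. With that library the exact test of MPTP-SU against MPTP-Veh gave p = 0.971, and without it p = 0.0571, the smallest p that 4 against 3 libraries allow (9.72% ± 0.20 against 11.2% ± 0.18, SD). In counts per count of *ATP6*, *CYTB* was at 0.789 to 0.899 in the 12 SUEHP libraries and at 0.958 to 0.976 in the 7. All 20 spinal cord libraries had a *CYTB* share of 10.9% to 11.9%, with MPTP-SU at 10.9% to 11.1% inside the range of the other groups. The 3 SUEHP groups of the midbrain share no other labelled treatment than MPTP and SUEHP, and the sources used here give no sequencing batch, so SUEHP and an unrecorded batch cannot be told apart. Mitochondrial ribosomal RNA was 2.10% to 3.93% of counts in MPTP-SU, above every MPTP-Veh library (at most 2.03%) and every Con library (at most 1.84%), and 1.63% to 4.26% over the 12 libraries. Its part in the result was not tested.

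In complex IV, all 3 midbrain shares were free of overlap between Con and MPTP-Veh. *COX1* was at 25.4%, 24.7%, 24.2% and 24.4% in Con and at 22.2%, 23.9%, 23.5% and 16.6% in MPTP-Veh. *COX2* was at 8.52% to 8.77% in Con and 9.21% to 10.5% in MPTP-Veh. *COX3* was at 7.29% to 8.10% in Con and at 9.96%, 8.81%, 8.32% and 28.9% in MPTP-Veh. Each gave the smallest exact p of 0.0286. Without replicate 4 the 3 genes still had no overlap, each at the smallest exact p of 0.0571, and they were 3 of 6 members and 3 of all 13 mRNAs (23.1%) with or without that library (*COX3*: 9.03% ± 0.84 against 7.71% ± 0.35, SD). Other sums also had no overlap between these groups: the 5 nuclear RNAs were at 4868 to 5495 CPM in Con and 6047 to 12165 CPM in MPTP-Veh, and the 5 astrocyte markers at 2160 to 2389 CPM and 1752 to 2041 CPM. The 5 choroid plexus markers ranged from 17.8 to 1242 CPM in Con and reached at most 51.5 CPM in the other midbrain groups. The part of these in the result was not tested. The share of *COX2* was also lower in MPTP-SU than in MPTP-Veh, at 8.98% ± 0.090 against 9.72% ± 0.55 (exact p = 0.0286). Without replicate 4 it was 8.98% against 9.72% ± 0.68, with an exact p = 0.0571, the smallest for 4 against 3 libraries. In this comparison 1 of 6 members and 3 of 13 mRNAs (23.1%) had no overlap with all libraries, and 2 of 6 and 4 of 13 (30.8%) without replicate 4.

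In complex V, *ATP8* had the shares without overlap in the spinal cord. It was 1.95%, 1.77%, 1.94% and 1.95% in MPTP-Veh, 1.99%, 2.14%, 2.09% and 2.32% in MPTP-SU, and 1.80%, 1.74%, 1.65% and 1.82% in MPTP-SU+T. MPTP-SU lay above both other groups with no overlap (exact p = 0.0286 for each). In Con the share was 1.81% to 2.41%, which overlaps MPTP-Veh and holds all of MPTP-SU. Over the 13 mRNAs, 1 had no overlap for MPTP-SU against MPTP-Veh in this tissue (7.69%) and 3 for MPTP-SU+T against MPTP-SU (23.1%). The *ATP6* share stayed within 11.1% to 12.2% in all spinal cord and all midbrain libraries but replicate 4 of MPTP-Veh, the narrowest relative range of the 6 genes.

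**Figure D3:**
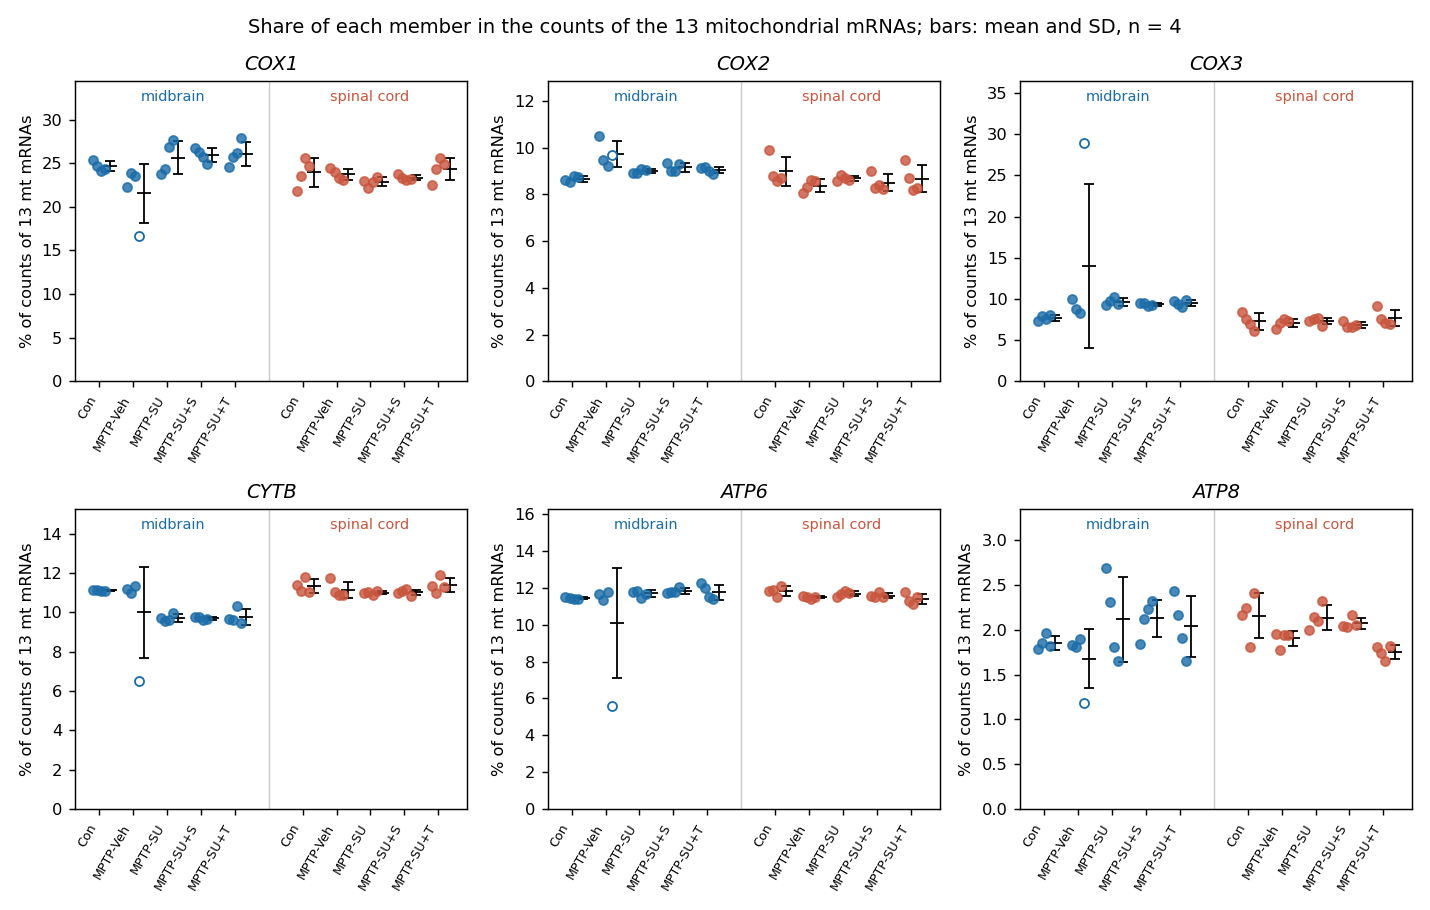
Percentage of the counts of the 13 mitochondrial mRNAs that each gene took in each library, with the groups, colours and marks of the plot of CPM by library. The *CYTB* panel shows the 12 midbrain libraries of the SUEHP groups at 9.44% to 10.3%, below Con and MPTP-Veh replicates 1 to 3 at 10.98% to 11.35%.

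Partner genes of the same complexes were then read from lists, with the number past the threshold in each. In the spinal cord under MPTP-SU+T against MPTP-SU, none of the 9 nuclear complex III, 16 complex IV and 18 complex V genes tested was called, and their median differences were 0.05, -0.17 and -0.04. None of 29 assembly factors or 29 genes of mitochondrial RNA synthesis and processing was called. The 7 mitochondrial complex I mRNAs were all below 0, with a median of -0.38, and none was called.

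In the midbrain under MPTP-SU against MPTP-Veh, nuclear partners were called in a comparison where 9.1% of all genes were called lower and 4.35% higher. All of these calls were lost when the 8 libraries of the comparison were fitted alone, which called 0 of 15764 genes. Of complex III, 4 of 9 were lower, among them *Uqcrh* (-0.85, adjusted p = 0.00857), *Uqcr11* (-1.57) and *Uqcrq* (-1.26), which encode small accessory subunits. Of complex IV, 2 of 15 were lower, *Cox5b* (-0.92) and *Cox4i1* (-0.83), the subunits around the catalytic core. Of complex V, 4 of 18 were lower, among them *Atpif1*, an inhibitor of the enzyme (-0.76, adjusted p = 0.00138), *Atp5h* of the peripheral stalk (-0.82) and *Atp5k* of the membrane sector (-1.09). Of 28 assembly factors 5 were lower and 1 was higher: the copper chaperone *Cox17* was at -0.87, *Uqcc2* of complex III assembly at -0.91, and *Cox11*, which delivers copper to *COX1*, at 0.64. Of 29 RNA processing genes 1 was lower, the exonuclease *Rexo2* (-0.85). Of 17 other mitochondrial proteins 3 were lower, among them the chaperone *Hspa9* (-0.64). The light-strand mRNA *ND6*, a complex I subunit, was at -1.65 and was the 1 called of 7 mitochondrial complex I mRNAs.

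Without MPTP-Veh replicate 4, where 2.09% of genes were called lower and 1.31% higher, the calls were 0 of 9 for complex III, 0 of 15 for complex IV, 3 of 18 for complex V (*Atp5h* -0.66, *Atpif1* -0.68, *Atp5k* -0.60), 2 of 28 assembly factors, all lower, and 0 in the RNA processing and other lists. *ND6* remained called at -1.48. *Cox5b* (-0.54, adjusted p = 0.00641) and *Uqcrh* (-0.52, adjusted p = 0.000720) then missed the fold threshold alone. Between tissues, the 22% of genes called included *Cox6a2* of complex IV, 2.53 higher in the midbrain, *Coa3*, an assembly factor of complex IV, at 0.59, and *ND6* at -0.74. Counts per list are not reported here for this comparison. These genes are therefore single examples and say nothing about how their lists compare with the 22%.

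**Figure D4:**
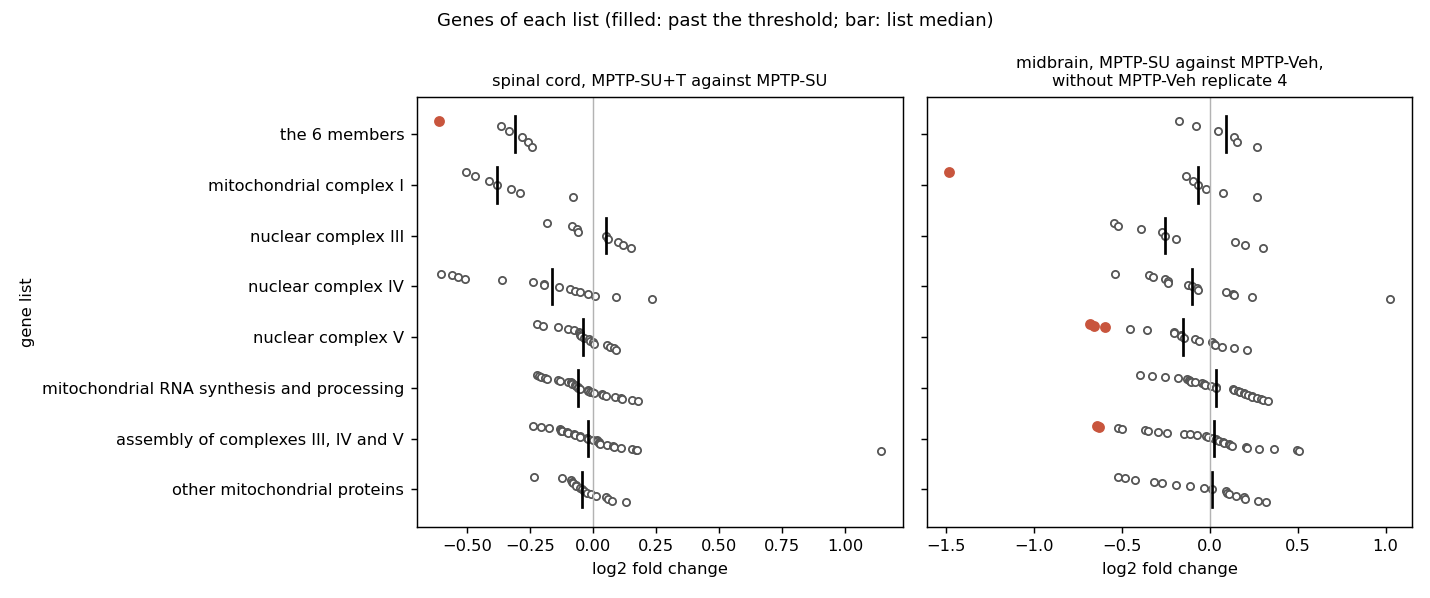
Log2 fold change of the 6 genes and of 7 lists of other mitochondrial genes, in spinal cord MPTP-SU+T against MPTP-SU (left) and midbrain MPTP-SU against MPTP-Veh without MPTP-Veh replicate 4 (right). Circles are genes, filled where called, and bars are list medians; on the left *ATP8* is the 1 filled circle and the 6 genes have a median of -0.31, on the right none of the 6 is called.

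The genes whose log2 CPM followed the mean of the 6 most closely were listed among nuclear genes with a mean log2 CPM above 3, as a description across libraries that share depth and group. In the spinal cord (20 libraries, 10680 genes) they included *Glrb*, a glycine receptor subunit (Pearson r = 0.950), *Triqk* (0.940), *Cadm2* (0.934) and *Selenof* (0.931). In the midbrain (19 libraries without MPTP-Veh replicate 4, 10675 genes) they included *Eif4e*, the cap-binding translation factor (0.889), *B2m* (0.868), *Astn1* (0.868) and *9930021J03Rik* (0.867). The 6 genes themselves stood at 0.848 to 0.994 (spinal cord) and 0.865 to 0.996 (midbrain), each against a mean that contains it. The 6 complex I mRNAs of the same strand stood as high, at 0.877 to 0.972 and 0.853 to 0.988, while the light-strand *ND6* stood at -0.261 and -0.153.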

How the data were processed

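Per the labels and methods, the authors enriched polyadenylated RNA, prepared CORALL RNA-Seq V2 libraries for paired-end NovaSeq sequencing, used fastp for read trimming, STAR for alignment and Salmon for quantification on GRCm39 (versions not given in the sources used here). The RNA kit is iNtRON Easy-Spin in the methods and TaKaRa RNAiso Plus in the labels. The deposited values were estimated counts per gene symbol, as whole numbers. Counts were fitted in R 4.3.3 with edgeR 4.0.16 (filterByExpr, TMM, quasi-likelihood test, 20 libraries of a tissue, or 40 between tissues), leaving 16629 midbrain and 16682 spinal cord genes. Benjamini-Hochberg adjustment ran over all genes tested. A call needed an adjusted p below 0.05 and a change above 1.5-fold. Shares were tested with exact permutation tests, two-sided.

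The fit was tested on simulated data for MPTP-SU against MPTP-Veh: of 100 genes changed 2-fold it called 56 (midbrain) and 79 (spinal cord), and of 100 changed 4-fold 90 and 94. The rule that defines the 6 genes uses no measured value, but the 6 genes, the lists and the tests were chosen with earlier results of these data known. The named genes are the 6, the 3 smallest p-values of each list with a call, and the 5 nuclear genes most alike per tissue; for length, some list genes that this rule names are given by count alone. In each tissue 1 of the 5 is not reported here. Alternatives were DESeq2 1.42.0, its size factors, library size alone, no low-count filter, scaling that leaves out mitochondrial and haemoglobin genes, limma-voom (limma 3.58.1), the 8 libraries of a comparison alone, a replicate block and each library left out. Sequences and lengths came from GENCODE mouse transcripts (GRCm38) for all 6 genes, and no coordinates were used.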

Additional observations from a re-analysis of the deposited data

Results flagged for a closer look

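Dixon's test on CPM flagged 1 library in 1 of 60 groups (6 genes, 10 groups). *ATP6* in spinal cord Con replicate 2 read 18636 CPM against 14022 to 14745 CPM. The gap was 0.843 of the group's range, above Dixon's critical value for 4 libraries. The test did not flag midbrain MPTP-Veh replicate 4, which lay 2.80-fold to 18.5-fold below the median of the other 3. Chance flags about 1 in 20 groups.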

How the results depend on the processing

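Over the alternatives run (16 or 17 for a comparison within a tissue, 9 between tissues and 4 for each interaction), the 6 genes kept their side of the threshold, with the exception of *ATP8* in spinal cord MPTP-SU+T against MPTP-SU. There the number of the 6 genes past the threshold ranged from 0 to 1 when 1 library was left out. The *ATP8* difference was -0.66 to -0.56 with an adjusted p of 0.0404 to 0.180 over these 8 fits, of which 7 lost the call, and -0.62 to -0.60 with an adjusted p of 3.54e-05 to 0.0277 over the other 8 alternatives, which all kept it. The number of shares with an exact p below 0.05 went from 6 to 2 without midbrain MPTP-Veh replicate 4, since 4 against 3 libraries cannot reach 0.05, and stayed at 6 over the 12 mRNAs without *ND6*. Of 930 fitted values under alternatives, 895 kept their sign and 35 did not, none of them from a called difference. Leaving out 1 library moved the median of the 6 genes between -0.84 and -0.18 for midbrain MPTP-Veh against Con and between 0.09 and 0.61 for midbrain MPTP-SU against MPTP-Veh, with the ends of both ranges set by the fits without MPTP-Veh replicate 3 and replicate 4. With limma-voom these medians were -1.17 and 0.94, and the cause was not tested. For spinal cord MPTP-SU+T against MPTP-SU the median was -0.35 to -0.28 over all alternatives. Other medians moved more. In the spinal cord they were -0.01 to 0.10 for MPTP-SU against MPTP-Veh and 0.08 to 0.19 for MPTP-SU+S against MPTP-SU. In the midbrain they were 0.06 to 0.30 for MPTP-SU+S and 0.02 to 0.20 for MPTP-SU+T, each against MPTP-SU. The median between tissues was -0.17 to 0.21.

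Whether replicate numbers pair the libraries within a tissue was not settled. Deviations of same-numbered libraries correlated at -0.168 to 0.378 in the midbrain, where 7 of 20 libraries correlated best with their own number. In the spinal cord they correlated at -0.171 to 0.229, with 9 of 20. Within a tissue 4 of 16 candidates share a number, which gives 5 of 20 if the numbers meant nothing. Between midbrain and spinal cord libraries of 1 group and number, the correlation was -0.151 to 0.304 over 20 pairs, with 2 pairs above 0.1, and 10 midbrain and 12 spinal cord libraries of 20 correlated best with their own number among the 4 of that group. This is a hint from the data that was not carried into the tissue interactions, which treat the libraries as independent. With a replicate block the medians were -0.71, 0.49, 0.21 and 0.11 in the midbrain and 0.20, 0.05, 0.11 and -0.31 in the spinal cord, for MPTP-Veh against Con, MPTP-SU against MPTP-Veh, MPTP-SU+S against MPTP-SU and MPTP-SU+T against MPTP-SU in turn, and -0.13 between tissues. The number of all genes called moved by more than 1.5 times under other alternatives: DESeq2 called 446 for midbrain MPTP-Veh against Con, where edgeR called 3, and the 8 libraries alone called 0 in place of 2237 for midbrain MPTP-SU against MPTP-Veh. With no low-count filter 19 were called in place of 0 for spinal cord MPTP-Veh against Con, 2 in place of 0 for MPTP-SU+S against MPTP-SU and 27 in place of 4 for MPTP-SU+T against MPTP-SU. The 8 libraries alone gave 5 in place of 0 for spinal cord MPTP-SU against MPTP-Veh and 13 in place of 4 for MPTP-SU+T against MPTP-SU, and DESeq2 called 1 in place of 0 for midbrain MPTP-SU+T against MPTP-SU and for spinal cord MPTP-Veh against Con and MPTP-SU+S against MPTP-SU. The block moved the number of all genes called from 3 to 0 for midbrain MPTP-Veh against Con, and from 2237 to 2020 and from 4 to 5 for midbrain MPTP-SU against MPTP-Veh and spinal cord MPTP-SU+T against MPTP-SU. Counts of 9084 or more behind each *ATP6* value and 1916 or more behind each *ATP8* value leave spread between libraries, not depth, as the limit.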
